A study of Bos taurus with 27 samples.

Results

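The early fattening stage of Japanese Black beef cattle was described from 9 of the 27 rumen epithelium (RE) arrays of the series, 1 array for each of 9 animals at 14 months of age. All arrays labeled as early stage were taken and no measured value entered that choice. The other 18 arrays were from the same 9 animals at the middle (21 months) and late (29 months) stages, and serve here to ask whether an animal kept its level and, at the end, to set the early profile beside the later stages. The cattle were castrated males with a rumen fistula fitted before the first biopsy and ate concentrate and roughage, so no intact, unfistulated or forage-only animal stands beside them, and no untreated group exists. The RE was scratched off with a biopsy punch in the ventral sac of the rumen, next to a pH sensor, and its RNA was taken in bulk.

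The RE is a stratified squamous epithelium. Its basal cells divide and are rich in mitochondria, its outer cells keratinize and form the barrier to the microbes of the rumen, and connected cells across the layers take up volatile fatty acids, which the epithelium partly turns into ketone bodies. Beneath it lie collagen-rich connective tissue, vessels and immune cells, which such a biopsy can also hold. In such bulk tissue, fewer cells of a type and less RNA per cell cannot be told apart.

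Each array carried 15008 different probes of 60 bases. The level of a probe was log2 of its background-subtracted intensity minus the median of that array over the probes other than controls, so that a level of 0 is the median probe and each unit is a doubling. The scanner software called 9963 probes (66.4%), standing for 9934 genes, well above background on all 9 early arrays, and 2606 probes on none of them. No spot was saturated. Among these 9934 genes, the mean level had a median of 1.88 and ran from −2.58 to 11.45, and the SD between the 9 arrays had a median of 0.230, with 0.469 or more in the most variable 10%. Animals 1 to 8 shared a slide, and animal 9 was on the next slide, so that animal 9 and its slide cannot be told apart. The array medians before scaling ran from 35.2 in animal 1 to 48.6 in animal 9.

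The label of the tissue was set against its markers. KRT6A, a keratin of stratified epithelium under turnover, was at 10.89 ± 0.14 (SD, n = 9), rank 8 of 9934. SLC26A3, an apical chloride and bicarbonate exchanger, was at 6.71 ± 0.63, and SLC16A1, the transporter of monocarboxylates such as lactate and ketone bodies, at 6.67 ± 0.65. The fourth marker, KRT4, was well above background on none of the 9 arrays, with a mean of −4.53, which is within the range of undetected probes. The sample labels also mention neutrophils and liver tissue. Of 18 liver markers on the array, 4 lay well above background throughout the 9 arrays and 8 on none, ALB, which codes for serum albumin, among the latter. The brightest of the 4 was APOA2, an apolipoprotein, at 5.59 ± 0.47. Of 14 neutrophil markers, 6 passed that call on all arrays and 3 on none, among the latter ELANE and CATHL1, which code for granule proteins. The 2 brightest of the 6 were S100A12 and S100A8, which keratinizing epithelium also expresses.

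The signal of a probe depends on the probe as well as on the RNA, so the order below is one of probe signals and not of transcript numbers. For 19 genes at least 2 probes passed the background call on every early array, and their mean levels differed by a median of 1.64, from 0.197 for PDCL to 7.48 for the ribosomal gene RPL27. The 8 probes of GAPDH ran from 3.92 to 9.54. The brightest probe stood for a gene. The SD between animals compares a probe with itself, but it too depended on the probe. It ran from 0.108 to 0.304 over the probes of ACTB and from 0.369 to 0.699 in CERS1, but only from 0.141 to 0.181 in GAPDH. Among 22 probes printed in 5 or 6 spots, the SD between spots of an array had a median of 0.0428, against 0.148 between arrays, and was smaller in 22 of 22. These probes were of ACTB, GAPDH, OAZ1, RPL27, RPS13 and RPS20 only. Spots of an array share its labeling and hybridization, so their spread leaves out error between arrays.

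The brightest probe signals came from the machinery of protein synthesis, from respiration and from keratinizing cells. Of the 30 brightest genes, 19 coded for cytosolic ribosomal proteins, 3 were encoded by the mitochondrial genome, 3 were keratins (KRT6A, KRT6B and KRT6C), and 2 were S100 proteins. FTH1, the heavy chain of the iron store ferritin, and ACTG1, a cytoplasmic actin, were others. These 30 genes lay within 1.05 log2 units of each other, and their SD had a median of 0.151.

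COX3, a mitochondrially encoded subunit of cytochrome c oxidase, had the highest level, with 11.25 as the lowest of the 9 arrays, 11.45 as the median and 11.72 as the highest. COX2, of the same complex, ran from 10.67 to 11.24 around a median of 10.93, and ND1, of complex I, from 10.24 to 11.01 around 10.75. In all of these genes animal 1 was the highest, and animals 6 and 9 were the lowest. RPL23, of the large ribosomal subunit, was at 10.89 ± 0.16 (n = 9) and ran from 10.68 in animal 9 to 11.16 in animal 1. The members of the ribosome were thus bright and steady. Of 64 ribosomal protein genes well above background on all 9 arrays, 44 were in the brightest 10% and 1 (0 without animal 8) in the most variable 10%, with a median level of 9.86 and a median SD of 0.153, where each of these shares by construction holds 10% of all genes. A further 5 of the 78 on the array were well above background on no early array.

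**Figure D1:**
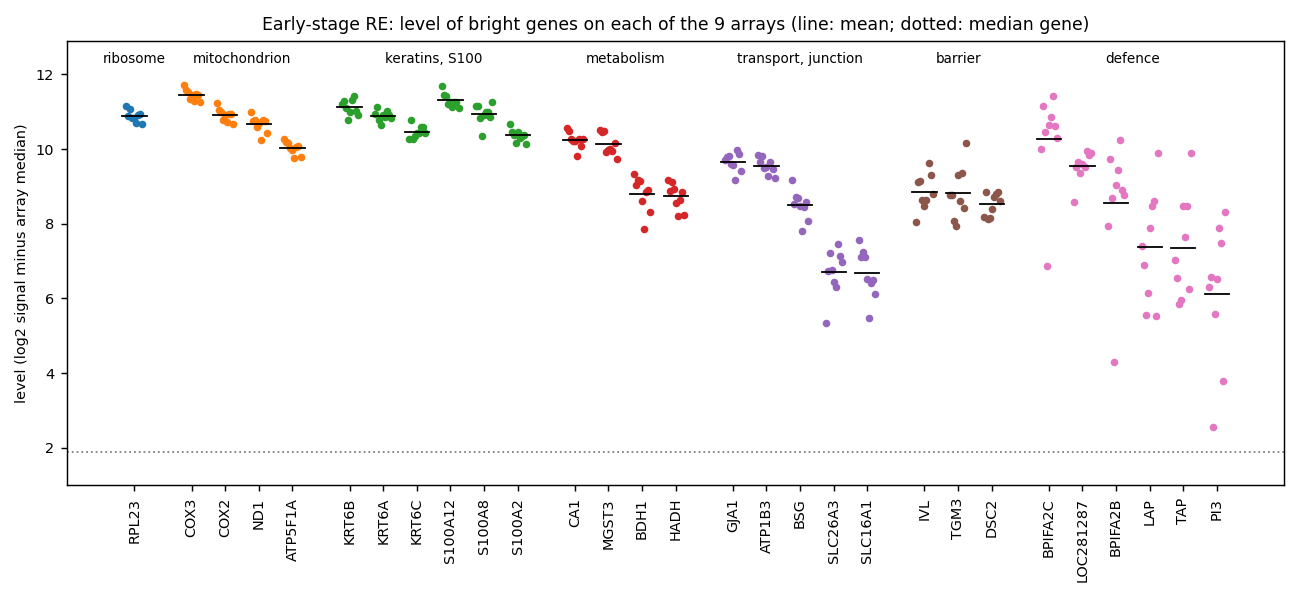
Level of 29 genes on each of the 9 early arrays, in the order of animals 1 to 9 from left to right within a gene. The vertical axis is log2 signal minus the array median, each point is 1 array, the short line is the mean, and the dotted line is the median gene at 1.88. The ribosomal, mitochondrial and keratin genes sit between 9 and 12 with little spread, whereas BPIFA2C, BPIFA2B, LAP, TAP and PI3 spread over several units.

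Among the keratins, the KRT6 genes led. KRT6B was at 11.11 ± 0.21 and ran from 10.78 in animal 4 to 11.43 in animal 7, KRT6C was at 10.46 ± 0.17, and KRT17, a partner of the KRT6 proteins in the filament, at 9.54 ± 0.16. The KRT6 genes are neighbors with similar sequences, and the middle 30 bases of their 60-base probes show which part of each was measured. The probes lie on chromosome 5 of the bosTau6 (UMD 3.1) build, at 27563878 to 27563937 (KRT6A), 27583254 to 27583313 (KRT6B) and 27599593 to 27599652 (KRT6C) on the plus strand. The annotation of exons of that build was not used here.
KRT6A: caaaacctgttacccatgaggttcccttgt
KRT6B: tgatgtacagggtctgtatcttcgtgttgc
KRT6C: caagtgactagttctatgatgtacaggatt
In the best ungapped alignment of the whole probes, KRT6B and KRT6C matched at 37 of 44 bases, with a longest shared run of 11, and KRT6A and KRT6B at 20 of 55. Signals of KRT6B and KRT6C are therefore uncertain as separate genes. Of 15 keratins well above background on all arrays, 8 were in the brightest 10% and 3 in the most variable 10%, and the list had a median level of 7.58. KRT23 (−1.12 ± 0.73) and KRT80 (−1.27 ± 0.65) had the largest SDs of the keratins.

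S100A12, a calcium-binding alarm protein of myeloid cells and of keratinocytes, was the second in rank at 11.31 ± 0.18, with 11.70 in animal 1 and 11.11 to 11.44 in the other animals. S100A8, its relative, ran from 10.35 in animal 4 through a median of 10.98 to 11.25 in animal 9. S100A2, of basal keratinocytes, was at 10.37 ± 0.16. These genes were in the top 32 of 9934 genes in the ranking by level. Of 13 S100 proteins and galectins well above background throughout, 7 were in the brightest 10%, and LGALS3 (5.95 ± 0.58) and LGALS9 (0.77 ± 0.51) had the largest SDs.

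The list of ketone body synthesis and short-chain acyl activation, which also held genes of fatty acid oxidation, had bright and dimmer members. They differed moderately between cattle. Among the members given here, BDH1, beta-hydroxybutyrate dehydrogenase, ran from 7.87 to 9.34 with a median of 8.90, and HADH and ACADS, enzymes of short-chain fatty acid oxidation, were at 8.74 ± 0.35 and 8.26 ± 0.33. ACSS2, which activates acetate, was at 4.33 ± 0.49, and CPT1A, which passes long-chain fatty acids into mitochondria, at 3.63 ± 0.51. Animal 6 had the lowest level of each of these 5 genes. Of 18 genes of this list well above background on all arrays, 10 were in the brightest 10% and 5 in the most variable 10% (3 without animal 6, or with 75th percentile or quantile scaling), and animal 6 was the lowest in 13, where it was the lowest in 22.6% of all 9934 genes.

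Nuclear subunits of oxidative phosphorylation had a median level of 7.21 and a median SD of 0.193. Of 66 well above background throughout, 47 were in the brightest 10% and 0 in the most variable 10%. ATP5F1A, the alpha subunit of ATP synthase, led with 9.77, 10.06 and 10.26 as the lowest, median and highest array, and CYC1, cytochrome c1, was at 9.49 ± 0.21. Animal 6 was the lowest in 48 of the 66. The 11 mitochondrially encoded genes on the array had a median level of 9.67 with a median SD of 0.344, and 10 of them were the highest in animal 1, which was the highest in 26.3% of all genes. Glycolysis genes had a median level of 7.55 and a median SD of 0.175, led by ALDOA (9.88 ± 0.18) and GAPDH (9.54 ± 0.17), and 0 of 13 were in the most variable 10%. Among 32 antioxidant and detoxification genes, 16 were in the brightest 10%, after FTH1 (10.85 ± 0.13) led by MGST3, a membrane-bound glutathione transferase (10.14 ± 0.29), and 4 (7 without animal 6) in the most variable 10%, among them HMOX1, heme oxygenase (4.74 ± 0.70), and NQO1, a quinone reductase (5.47 ± 0.60).

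The genes of fatty acid, proton and bicarbonate transport were fewer among the bright ones and spread more. CA1, a carbonic anhydrase that supplies protons and bicarbonate, was at 10.24 ± 0.22, with 9.81 in animal 6, 10.26 as the median and 10.57 in animal 1. BSG, the chaperone of the monocarboxylate transporters, ran from 7.81 to 9.17 around 8.53, and ATP1B3, a subunit of the sodium pump, from 9.22 to 9.84 around 9.52. SLC26A3 ran from 5.35 in animal 1 to 7.46 in animal 7, a 4.32-fold range. SLC16A1 was the highest in animal 1 and ran from 5.47 in animal 6 through a median of 6.53 to 7.56, a 4.26-fold range. SLC14A1, the urea transporter through which blood urea reaches the rumen, was at 5.06 ± 0.74, with 3.77 in animal 6 and 5.98 in animal 2. Of 17 genes of fatty acid, proton and bicarbonate transport well above background throughout, 4 were in the brightest 10%. In the most variable 10% were 6 of the 17 (3 without animal 1), and SLC4A4, SLC16A4 and SLC16A7 were well above background on no array. The sodium pump and ATPase genes differed from this list. Of 8 well above background throughout, 4 were in the brightest 10% and 1 (0 without animal 6) in the most variable 10%, with a median SD of 0.212.

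Genes of the cornified layer had bright members and dimmer members with a wide spread. IVL, involucrin of the cornified envelope, ran from 8.04 in animal 1 to 9.61 in animal 7, with a median of 8.81. TGM3, a transglutaminase that crosslinks the envelope, was at 8.83 ± 0.70 and reached 10.16 in animal 9, with 7.94 to 9.37 in the others. LYPD3 was at 7.94 ± 0.19. KLK10, a secreted protease, ran from −0.64 in animal 4 through 1.32 to 3.75 in animal 6, SBSN, suprabasin, from −0.26 in animal 3 through 1.54 to 4.33 in animal 6, and KRTDAP, a differentiation protein, from 0.05 through 1.76 to 3.46. Animals 6 and 9 were the highest 2 animals in these 3 genes. Of 31 cornified layer genes, 12 were in the most variable 10%, with a median SD of 0.367.

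Among the desmosome genes, which join keratinocytes, DSC2 (8.52 ± 0.31), PERP (8.03 ± 0.16) and PKP1 (7.49 ± 0.46) were bright. DSG1, a cadherin of the outer layers, was at 2.52 ± 1.52 and ran from −0.16 in animal 4 through 2.38 to 5.06 in animal 6, rank 11 of all genes by SD. GJA1, connexin 43 of gap junctions, was at 9.65 ± 0.25, GJB2, connexin 26, at 8.56 ± 0.30, and F11R, a tight junction adhesion protein, at 6.53 ± 0.21. Of 16 junction genes, animal 7 was the highest in 11, against 11.8% of all genes, and in 7 after quantile normalization.

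Host defence held the widest spread among the bright genes. Of 22 antimicrobial and mucosal defence genes well above background on all 9 arrays, 18 were in the most variable 10%, 6 in the brightest 10%, and the median SD was 0.774 against 0.230 for all genes. A further 8 of the 35 on the array, among them the cathelicidins CATHL1 and CATHL2 and the protease inhibitor SLPI, were well above background on none. PI3, trappin-2, an inhibitor of neutrophil elastase, had the largest SD of the 2484 genes in the top 25% by level. It was at 2.56 in animal 3, 3.80 in animal 8, 5.59 in animal 4, 6.32 in animal 1, 6.51 in animal 5, 6.57 in animal 2, 7.48 in animal 7, 7.90 in animal 6 and 8.32 in animal 9, a 54.4-fold range. The values were graded, with the widest gap between animals 8 and 4.

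LAP and TAP, the lingual and tracheal beta-defensins, spread in a similar order. LAP ran from 5.54 in animal 8 through 7.41 to 9.89 in animal 9, a 20.4-fold range, and TAP from 5.85 in animal 3 through 7.02 to 9.89 in animal 9. Their probes matched at 30 of 43 bases in the best ungapped alignment, so their signals are uncertain as separate genes. DEFB10, another beta-defensin, ran from 2.77 in animal 4 to 6.27 in animal 7 around 4.70. In LAP and TAP the same 4 animals, 5, 6, 7 and 9, were above the other 5. IL36A, an epithelial cytokine, was at 7.59 ± 0.59, CFB, complement factor B, at 4.27 ± 1.02, DUOXA2, which matures an enzyme that makes hydrogen peroxide, at 4.05 ± 0.90, and LBP, which binds lipopolysaccharide, at 4.26 ± 0.79. LBP ran from 3.19 in animal 1 to 5.82 in animal 9. LOC281287, a lysozyme, was the brightest of the list at 9.54 ± 0.41, with 8.58 in animal 1 and 9.35 to 9.94 in the other 8 animals.

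Neutrophil-attracting chemokines were dim on most arrays and high in animal 9. CXCL8 was at 4.64 in animal 9, 2.14 in animal 6 and between −0.72 and 0.87 in the other 7 animals. IL1B, an inflammatory cytokine, was at 3.72 in animal 9 and at most 0.85 elsewhere. CXCL5 (0.49 ± 1.44) and GRO1 (0.73 ± 1.42), of the same chemokine family, were also the highest in animal 9 and second in animal 6. Without animal 9, the SD of CXCL8 was 0.941 in place of 1.68 and that of IL1B 0.670 in place of 1.53, both still above the 0.469 that bounds the most variable 10% over all 9 animals.

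**Figure D2:**
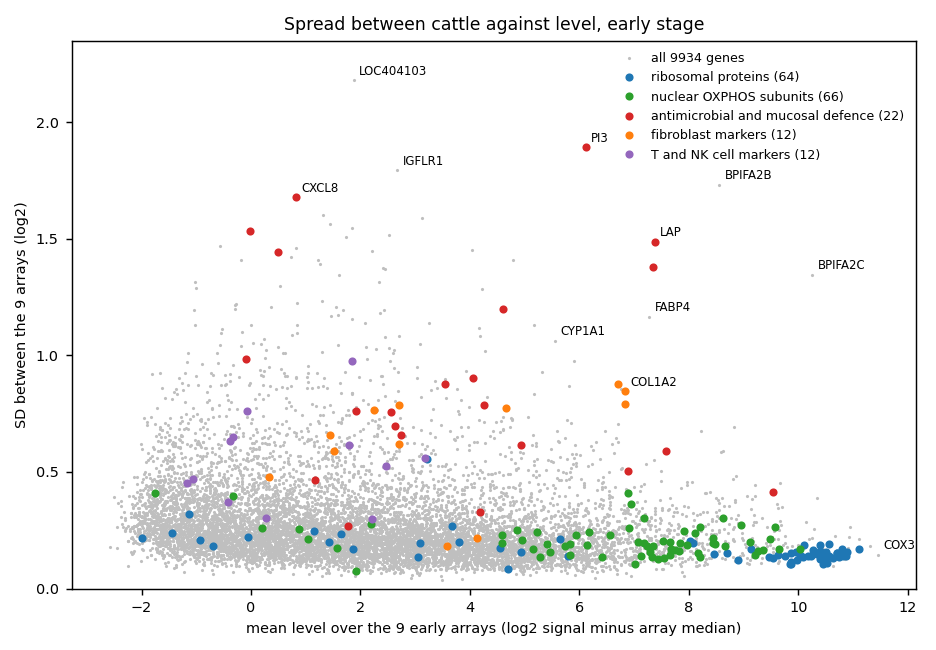
SD between the 9 early arrays against the mean level, both on the log2 scale, for the 9934 genes well above background on all 9 arrays (gray), with 5 gene lists in color and their numbers in brackets. Ribosomal and nuclear OXPHOS (oxidative phosphorylation) genes lie at the bright, low-spread end, whereas antimicrobial genes and fibroblast markers lie above most genes of their level.

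The antimicrobial list as a whole was the highest in animal 9. Its mean deviation from the 9-array means was 1.47 in animal 9, 0.48 in animal 6, 0.37 in animal 7, −0.72 in animals 1 and 3, and −0.65 in animal 4. All 22 genes were above their own mean in animal 9, which was the highest in 14 of 22, against 11.2% of all 9934 genes. Markers of other cell types moved in that animal too. T and NK cell markers were the highest in animal 9 in 10 of 12 members, with a mean deviation of 1.13 against −0.30 to 0.08 in the other 8 animals, B and plasma cell markers in 6 of 7, macrophage and dendritic cell markers in 6 of 9, and neutrophil markers in 4 of 6. Of these, the defining neutrophil genes ELANE, PGLYRP1 and CATHL1 were well above background on no array. The array of animal 9 also had the highest median signal, the largest share of probes well above background (78.1% against 68.8% to 74.3%) and was the only early array on its slide, and the part of these in the result was not tested.

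Single immune genes are given as examples of these lists in animal 9. They were named for their level or spread on these same arrays, so they add no support to the counts. CD8A, of cytotoxic T cells, was at 1.07 in animal 9 and between −1.13 and 0.21 in the other animals. GZMB, a granzyme, was at 1.24 against −0.81 to −0.35, and its SD without animal 9 was 0.172 in place of 0.632. CCL5, a T cell chemokine, was at 4.03 against 0.60 to 2.40. Interferon-stimulated genes were the highest in animal 9 in 17 of 28, among them ISG15 (2.02 to 4.47, median 3.16) and CXCL10 (2.94 in animal 9 and at most 1.47 elsewhere). MHC class I genes were the highest in animal 9 in 9 of 10. BOLA, a class I heavy chain, was at 9.16 ± 0.38 and ran from 8.62 in animal 3 to 9.89 in animal 9. Without animal 9, 2 of 10 class I genes were in the most variable 10% in place of 5, and 4 of 12 T and NK cell markers in place of 7.

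MHC class II genes were also the highest in animal 9 in 5 of 8, against 11.2% of all genes, with a mean deviation of 0.66. In their low values they differed from the class I genes. BOLA-DRA, the alpha chain of DR, was at 6.41 ± 0.43, and CD74, the chaperone of class II, at 4.92 ± 0.43, and both were the lowest in animal 2, at 5.65 and 3.96. Animal 2 was the lowest in 6 of 8 class II genes, against 6.74% of all genes. BOLA-DRB3, the DR beta chain that is highly polymorphic in cattle, ran from 1.84 in animal 1 to 4.63 in animal 7, and BOLA-DQA1 from −1.65 in animal 2 to 2.55 in animal 7. LOC524810, an immunoglobulin M gene, ran from 3.11 in animal 1 through 4.35 to 7.14 in animal 9, and JCHAIN, which joins immunoglobulin M and A units, from 0.78 in animal 1 through 1.97 to 4.54 in animal 9. In both of them, animal 8 was the second.

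Connective tissue genes separated animals 1 and 6. Of 12 fibroblast markers well above background throughout, 10 were in the most variable 10%, 11 were the highest in animal 6 and 9 were the lowest in animal 1, against 12.2% and 13.2% of all genes. The mean level of the 12 was 2.63 in animal 1, 4.65 in animal 6 and between 3.34 and 3.95 in the rest. COL1A2, of type I collagen, was at 5.08 in animal 1, between 6.57 and 7.14 in 7 animals and at 8.34 in animal 6, a 9.63-fold range. COL3A1 (4.92 to 8.30, median 6.82), COL6A1 (5.14 to 8.06, median 6.93) and DCN, the proteoglycan decorin (3.16 to 6.17, median 4.63), had the same lowest and highest animal. TGFBI, an extracellular matrix protein, was at 2.40 in animal 1, 5.50 in animal 6 and between 4.15 and 4.67 in the rest. Smooth muscle markers followed in part, with ACTA2 at 7.76 in animal 6, 7.45 in animal 4 and 5.87 to 6.56 in the other 7, and TAGLN at 2.98 in animal 6 and 0.97 to 2.23 in the others. Endothelial markers had a median SD of 0.400 over 10 genes, against 0.712 for the fibroblast markers. The animal with the highest fibroblast markers was thus also the lowest in most nuclear oxidative phosphorylation genes. It was also the lowest in most genes of the list of ketone body synthesis and short-chain acyl activation. The part of cell makeup in that was not tested. The 4 liver markers well above background throughout were on average 1.22 log2 units above their mean over the 9 arrays in animal 6, which was the highest in 3 of them, against a mean deviation of −0.95 in animal 1, while ALB and 7 others of the 18 were well above background on no array. Animal 6 was also the highest in 7 of 15 immediate early genes, which respond fast to stimuli and tissue handling, against 12.2% of all genes. The part of either in the levels of animal 6 was not tested.

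Proliferation genes ran opposite to the fibroblast markers in animals 1 and 6. Of 25 genes, animal 1 was the highest in 18, against 26.3% of all genes, and animal 6 the lowest in 15, against 22.6%. Animals 2 and 3 did not follow this, with mean deviations of 0.39 and −0.30 in proliferation genes and of 0.02 each in fibroblast markers. MCM4 and MCM7, of the replicative helicase, were at 5.68 and 6.11 in animal 1 and at 4.55 and 5.34 in animal 6. Of the 25, 1 was in the most variable 10% (0 to 3 when 1 animal was left out). Their median SD of 0.347 was above the upper quartile of 0.326 over all genes. RRM2, which supplies deoxynucleotides, had the lowest level in animal 3 (0.73) and the highest in animal 1 (2.12).

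**Figure D3:**
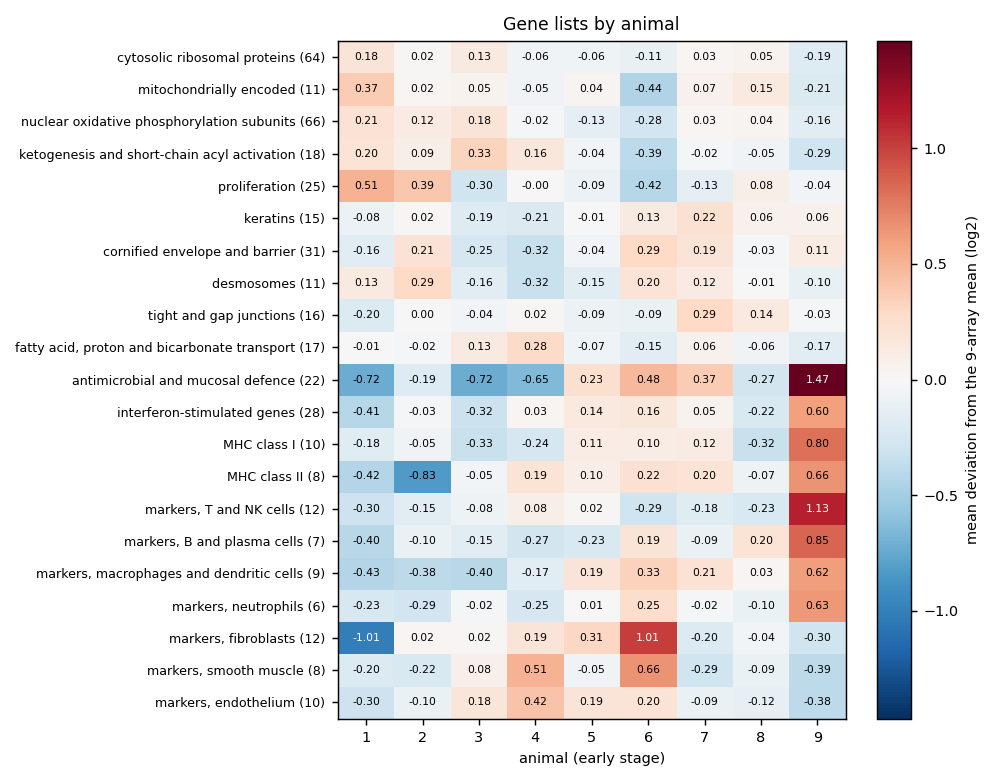
Mean deviation of the members of 21 gene lists from their own 9-array means, in log2 units, for each animal at the early stage, with the number of members in brackets. Red is above and blue below the mean. Animal 9 stands out in antimicrobial (1.47) and T and NK cell genes (1.13), and animals 6 and 1 in fibroblast markers (1.01 and −1.01).

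Of the 100 most variable genes, 42 were the highest in animal 9 and 28 in animal 6, and 41 were the lowest in animal 1. The shares over all genes were 11.2%, 12.2% and 13.2%. Choosing genes by their SD over these same arrays favors those in which an animal is extreme, so the counts are a description. Of all 9934 genes, 85 had an SD above 1, and 15 of these were in the top 25% by level. The widest of all was LOC404103, a spleen trypsin inhibitor, with −1.74 in animal 1, −0.50 in animal 2, 1.61 as the median and 5.15 in animal 6, a 119-fold range. MFRP, a frizzled-related membrane protein, ran from 0.66 in animal 4 to 5.40 in animal 6, and FOLR2, a folate receptor of macrophages, from −1.21 in animal 1 to 4.09 in animal 6. PDCD1, a checkpoint receptor of T cells, was at 2.10 in animal 1, 4.47 as the median and 6.18 in animal 6. LOC404103, FOLR2 and PDCD1 thus had the same highest and lowest animal as the collagens.

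Metabolic genes with a wide spread had other orders. FABP4, a fatty acid-binding protein of adipocytes and macrophages, ran from 5.85 in animal 7 to 9.29 in animal 3 and 8.85 in animal 6, a 10.8-fold range. CYP1A1, a monooxygenase that aryl hydrocarbon receptor ligands induce, ran from 3.75 in animal 6 through 5.49 to 7.18 in animal 1, a 10.8-fold range. SLC6A14, an amino acid transporter, was at 1.65 in animal 9, 0.53 in animal 6 and −0.56 or less in the others. At the other end, the smallest SDs in the top 25% by level were those of GNG5, a G protein subunit (6.28 ± 0.046), NUCB1, a Golgi calcium-binding protein (6.95 ± 0.052), HNRNPK, an RNA-binding protein (7.91 ± 0.053), PSMC2, of the proteasome (5.92 ± 0.057), and TUBB, a tubulin (6.68 ± 0.061). These SDs are near the spread between spots of an array.

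**Figure D4:**
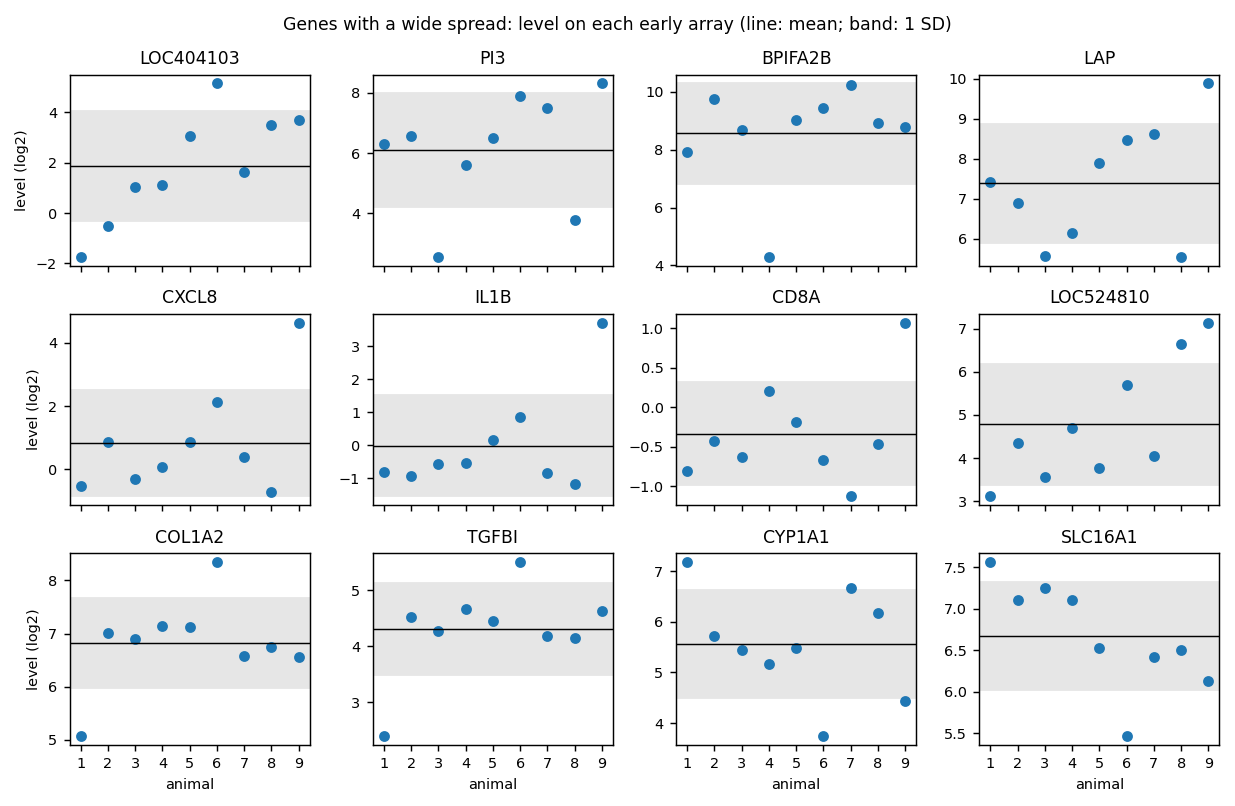
Level of 12 genes with a wide spread on each of the 9 early arrays (horizontal axis: animal; vertical axis: log2 signal minus the array median; line: mean; band: 1 SD on each side; each panel has its own vertical scale). CXCL8, IL1B and CD8A are set apart by animal 9, COL1A2 and TGFBI by animals 1 and 6, and BPIFA2B by animal 4.

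A principal component analysis over 9928 genes put 37.7%, 16.5% and 12.1% of the variance between the early arrays on the first 3 components. On the first, animal 1 was at −35.3, animal 9 at 25.6 and animal 6 at 31.5, with the other 6 animals between −11.4 and 6.92. The second parted animal 9 (24.96) from animal 6 (−20.4). The first component followed the unscaled median signal of the array (Pearson's r = 0.845, two-sided exact permutation P = 0.00253, adjusted over 4 relations 0.0101; Spearman's rho = 0.85, exact permutation P = 0.00607, adjusted 0.0243; n = 9), with r = 0.696 without the 2 arrays whose signal was farthest from the median. The other 3 relations, of both components with the share of detected probes and of the second with the median signal, had adjusted P values of 0.751 or more. Brightness of the array and the animal cannot be told apart with 1 array for each animal.

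Whether the differences between animals recurred was asked of the middle and late arrays of the same cattle. A limma model with stage and animal over all 27 arrays called an animal effect in 281 of 15008 probes (1.87%) at an adjusted P below 0.05, and in 205 of the 9963 well above background on all early arrays (2.06%). The count was 121 of 15008 without animal 1. Each animal had the same slide position on its early and late arrays and another position on its middle array. At the early and the late stage, animal 9 was also on another slide than the other animals. Animal and position therefore cannot be told apart between the early and late arrays. Since the early arrays entered both this fit and the ranking by SD, the fit was also made on the middle and late arrays alone, which the ranking had not used. It called 12 of the 9963 probes (0.12%), and 567 (5.69%) had an unadjusted P below 0.05. Of the 100 genes most variable at the early stage, 10 were called, and 60 passed without adjustment. Of the 100 brightest genes, limma called 0, and 1 passed without adjustment. All of the 12 called were in the most variable 10% of the early arrays.

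The clearest of these 12 genes had levels in separate sets of animals. IGFLR1, a receptor of the IGF-like family, was at −0.41 and −0.37 in animals 6 and 7 and between 2.92 and 4.16 in the other 7 early arrays. In the middle stage animals 6 and 7 were at −0.37 and −0.41 and the others between 3.55 and 5.05, and at the late stage at −0.34 and −0.21 against 2.92 to 4.42 (adjusted P = 0.000376 in limma on the middle and late arrays). The sets did not overlap at any stage. ERGIC3, a protein of the transport between endoplasmic reticulum and Golgi, was at 3.54 and 4.32 in animals 1 and 4 and between 0.67 and 1.35 in the others, and the same 2 animals were the highest at both later stages (adjusted P = 0.00355, limma). MVK, mevalonate kinase of cholesterol synthesis, was at −1.08 and −2.25 in animals 1 and 5 and between 1.22 and 1.86 in the others, and these 2 were again the lowest later (adjusted P = 0.00253, limma). GSTT4, a theta-class glutathione transferase, was between 0.70 and 1.45 in animals 1, 5, 6 and 7 and between −2.08 and −1.52 in the other 5 (adjusted P = 0.00771, limma), with the same 4 animals above the other 5 at each stage.

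The best example among bright genes was the pair BPIFA2B and BPIFA2C, which code for secreted proteins of the BPI fold family known from bovine saliva. BPIFA2C, rank 39 by level, was at 6.86 in animal 4 and between 10.00 and 11.43 in the other 8. BPIFA2B was at 4.29 in animal 4 and between 7.93 and 10.24 in the others. At the middle stage animal 4 was at 3.64 for BPIFA2C and at 1.34 for BPIFA2B, against 8.90 to 10.16 and 5.70 to 8.00, and at the late stage at 7.88 and 5.17, against 10.31 to 11.30 and 8.22 to 10.04. Animal 4 was the lowest in both genes at each stage. The animal effect on the middle and late arrays had an adjusted P of 0.00355 for BPIFA2B and of 0.0773 for BPIFA2C (limma).

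The probes of these 6 genes are given by their middle 30 bases, since the finding rests on 1 probe for each gene. In the bosTau6 build they lie at 46641564 to 46641623 of chromosome 18 on the minus strand (IGFLR1), 65442712 to 65442771 of chromosome 13 on the plus strand (ERGIC3), 65868632 to 65868691 of chromosome 17 on the minus strand (MVK) and 73297179 to 73297238 of chromosome 17 on the plus strand (GSTT4). The probes of BPIFA2B (63174907 to 63175522) and BPIFA2C (63094611 to 63095261) on the plus strand of chromosome 13 span more than 60 bases of the genome, as a probe across an exon junction does.
IGFLR1: gctcatcaggggcttgcctggcctagtatt
ERGIC3: gccttacagtgttgttcacaaggatgaata
MVK: ttgctaatccatcagttagtactaaataca
GSTT4: cactggacccgatggtcaaggagaggatct
BPIFA2B: gctgggtctctttccagattggttccagga
BPIFA2C: agagaacagatgagaaaaaccacagtgatg
In the best ungapped alignment, the whole probes of BPIFA2B and BPIFA2C matched at 18 of 23 bases, with a longest shared run of 15. Their signals are therefore uncertain as separate genes.

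**Figure D5:**
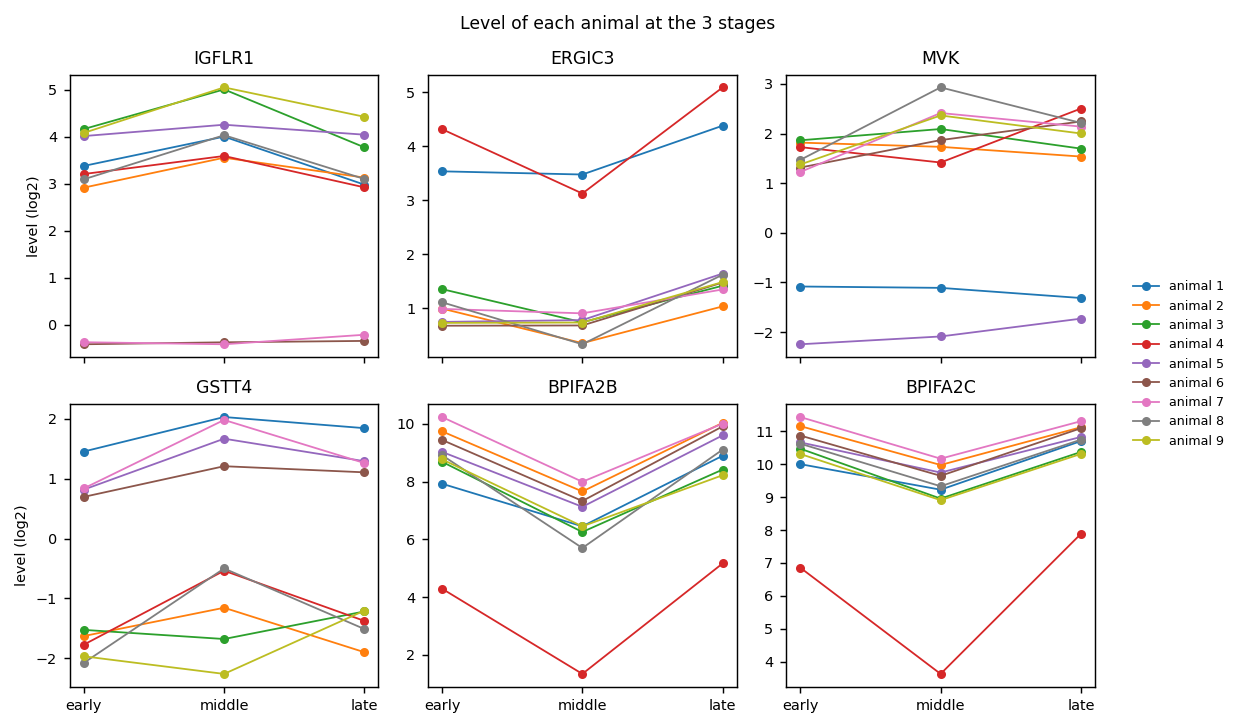
Level (log2 signal minus the array median) of 6 genes in each of the 9 animals at the early, middle and late stages, with 1 line for each animal. Animals 6 and 7 stay near −0.4 in IGFLR1, animals 1 and 4 stay high in ERGIC3, animals 1 and 5 stay low in MVK, and animal 4 is the lowest in BPIFA2B and BPIFA2C at every stage.

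Of the remaining 7 called genes, TRIM5, a restriction factor against retroviruses, was between 0.83 and 1.75 in animals 1, 2, 8 and 9 and between 3.15 and 3.46 in the others at the early stage (adjusted P = 0.0497 on the middle and late arrays, limma). BOLA-DRB3 was the lowest in animal 1 at the early (1.84), middle (1.62) and late (1.23) stages (adjusted P = 0.0491, limma). IL25, an epithelial cytokine, was at −0.54 ± 1.11 at the early stage and the highest in animals 1, 4 and 7 (adjusted P = 0.0318, limma). TNNI3, a cardiac-type troponin, was at 2.60 ± 1.01 and the lowest in animal 4 (adjusted P = 0.0427, limma). ATP6AP1L, related to an accessory protein of the proton pump, was at 0.25 ± 1.07 and the lowest in animal 1 (adjusted P = 0.0406, limma). CDH23 and LRRC3B were called too and are named, after their values were seen, to complete the set. The fit on all stages had 19 alternatives. IGFLR1, ERGIC3, BPIFA2B, TNNI3 and ATP6AP1L were called under each of these, and GSTT4, MVK and IL25 under each of the 18 that kept them. BPIFA2C and TRIM5 were called under 18 of 19 and BOLA-DRB3 under 17 of 19. Except for the fit on the middle and late arrays alone, these alternatives used early arrays, on which genes had been ranked by SD. The counts of alternatives are therefore not independent of that ranking.

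The patterns of whole lists recurred unequally. Animal 1 was the lowest in 9 of 12 fibroblast markers early, in 8 of 12 in the middle stage and in 9 of 12 late, and the lowest in 6.24% and 14.6% of all genes at the later stages. COL1A2 in animal 1 was at 5.08, 4.96 and 4.22 at the 3 stages, the lowest of the 9 animals each time. In the fit on all 27 arrays, 5 of 12 fibroblast markers were called. The share called was 2.06% among probes that passed the background call throughout the early stage. This fit included the early arrays, on which 10 of the 12 markers were in the most variable 10%. COL1A2 had an adjusted P of 0.00192 in that fit and of 0.143 on the middle and late arrays alone (limma). The count for the list on the middle and late arrays alone is not reported here. For animal 6, the count of fibroblast markers in which it was the highest was 11 early, 7 in the middle stage and 0 late, and it was the highest in 11.3% and 13.2% of all genes at the later stages. For animal 9, the same count of the 12 T and NK cell markers was 10, then 2, then 0, and it was the highest in 22.0% and 17.2% of all genes at the later stages. For antimicrobial genes the counts of animal 9 were 14, 2 and 2 of 22, and for class I genes 9, 0 and 2 of 10. Animal 1, the highest in 18 of 25 proliferation genes early, was the lowest in 22 of them late. The differences between stages in these counts were not tested.

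The early profile was last set beside those of the later stages. Of the 100 brightest early genes, 91 were among the 100 brightest at the late stage and 83 among those at the middle stage. Of the 100 most variable, 60 were shared with the late stage over 9593 genes and 52 with the middle stage over 6788 genes. In the same limma model, 2999 of 15008 probes (20%) differed between the late and the early stage, 1647 (11%) being higher late and 1352 (9.01%) lower, or 985 higher and 1928 lower after 75th percentile scaling. The early arrays were on slides 1 and 2 and the late arrays on slides 4 and 5, scanned on later days, so stage and slide cannot be told apart here, and 384 probes were called where the slide was a random block, against 2729 with no block. Between the middle and the early stage 9983 (66.5%) differed, 6795 (45.3%) higher and 3188 (21.2%) lower, on arrays whose median signal was 8.22 to 28.7. That split was 3677 higher and 3492 lower after quantile normalization, and 3125 higher and 3143 lower among probes that passed the background call throughout the early or the middle arrays. Late against early, 9 of the 100 brightest early genes were called higher and 6 lower, and 4 of the 100 most variable higher and 8 lower. Middle against early, the counts were 45 higher and 18 lower of the brightest, and 10 higher and 31 lower of the most variable. Both sets were chosen on early values, so nothing is read from these counts.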

How the data were processed

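RNA of 27 RE biopsies was extracted, labeled with cyanine 3 and hybridized to one-color bovine arrays. The intensity deposited by the authors is the processed signal of Agilent Feature Extraction (version 11.0.1.1 in the file headers, 9.5 in the submitters' processing notes), from which the software had subtracted the local background. Its calls of well above background, saturation and outliers were used as deposited. A second deposited table by the authors, of log2 values, equals log2 of the processed signal centered near the 75th percentile of each array and served as an alternative.

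Spots of a probe were averaged, outlier spots were left missing, and the array median of log2 signals was subtracted. Identifiers named 11194 of 15008 probes through the reference gene table and 3814 kept the name of the array design. Genes were ranked by mean and SD among probes well above background on all 9 early arrays. Genes named are the 30 brightest, the 30 most variable (overall and in the top 25% by level), the 10 steadiest there, the 4 brightest and 4 most variable members of each of 33 lists, members detected on no array, the 10 with the smallest P of the animal effect, genes with several probes, and the markers. Not all are printed, and results for some single genes are not reported here. The members, lists and tests were chosen with earlier results of these data known.

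Animal effects and stage differences were fitted with limma 3.58.1 in R 4.3.3 (stage and animal as terms, empirical Bayes moderation, Benjamini-Hochberg adjustment over 15008 probes). The animal numbers of the labels pair the arrays, since each animal gave a biopsy at every stage, and deviations from stage means correlated by 0.175 (early and late) and 0.232 (early and middle) on average within an animal against −0.021 and −0.028 between animals. Both the model and its calls were tested on simulated data first. With 1 biopsy an animal and stage, P values rest on the spread within animals over stages, and the 9 arrays limit the precision. Fold ranges are from the log2 scale.

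As alternatives, arrays were scaled to the 75th percentile, normalized by quantiles or corrected by normexp (offset 50), outlier spots were kept, series matrix values were used, probes were filtered otherwise, stages or single animals were left out, and the model had no replicate block or had the slide as a random block. Choices added after seeing the data were normexp with aberrant spots given the median background, the fit on middle and late arrays, and counts for lists.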

Additional observations from a re-analysis of the deposited data

Results flagged for a closer look

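Levels of 113 genes on the 9 early arrays, and of 6 of them also on the middle and late arrays, were searched for an animal set apart from the other 8 by a gap that, as a share of the whole range, passed Dixon's 95% limit for 9 values. Of 125 such sets of 9 values 18 had one. Chance gives about 1 in 20 for sets chosen without regard to their values, a rate that does not apply here, since many of these genes were named for their spread between the same arrays or their animal effect and genes of a list are not independent of each other, so the count is a description.

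Animal 4 was set apart as the lowest in BPIFA2C at the early (6.86, next 10.00), middle (3.64, next 8.90) and late (7.88, next 10.31) stages and in BPIFA2B at the early (4.29, next 7.93), middle (1.34, next 5.70) and late (5.17, next 8.22) stages. The probes of BPIFA2C and BPIFA2B share a run of 15 bases, so their signals are uncertain as separate genes. At the early stage animal 4 was also the lowest by this measure in S100A8 (10.35, next 10.82) and in HBA, a hemoglobin chain (5.23, next 5.79).

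Animal 9 was set apart as the highest in IL1B (3.72, next 0.85), CXCL10 (2.94, next 1.47) and GZMB (1.24, next −0.35), and as the lowest in EEF2, an elongation factor of translation (9.62, next 9.92). Animal 1 was set apart as the lowest in LOC281287 (8.58, next 9.35), TGFBI (2.40, next 4.15) and FOLR2 (−1.21, next 1.59). Animal 6 was set apart as the lowest in NUCB1 (6.84, next 6.93) and as the highest in APOA1, an apolipoprotein (1.86, next −0.52). Animal 2 was set apart as the lowest in CD74 (3.96, next 4.76).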

How the results depend on the processing

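The 100 brightest genes kept 98 to 99 members when an animal was left out, and the 100 most variable 73 to 97. Of the 100 most variable, 15 remained under normexp background correction, 61 under normexp with the aberrant spots given the median background of their array (chosen after seeing the data), 52 with the median absolute deviation and 16 in the top 25% by level, a set that by construction leaves out most of the genes. The median SD was 0.399 and 0.133 under these 2 forms of normexp (0.217 to 0.238 without 1 animal). The first component held 89.9% of the variance under normexp and 25.9% over all non-control probes (33.2% to 41.0% without 1 animal). These aberrant spots, with a background far above their own signal, numbered 7 on the early array of animal 9 and 1 on that of animal 3. The middle array of animal 9 held 4 and the late array of animal 1 held 3. With their background set to the array median, normexp gave back 14 of 15 list counts by animal within 1.5 times. With their own background it gave back 6 of 15. Quantile normalization kept 12 of 15, with animal 1 the highest in 15 of 64 ribosomal genes in place of 39.

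The animal effect was called in 40 probes under normexp and 257 with the aberrant spots given the median background. It was called in 109 with the early and late arrays only, 30 with the early and middle and 19 with the middle and late. These fits used fewer arrays than the main fit, but the same number as each other. Each animal kept its slide position only between the early and late arrays, and the part of position was not tested. The count was 121 (without animal 1) to 378 (without animal 9) when an animal was left out. Late against early, 1195 probes were called under normexp and 384 where the slide was a random block, and 2230 to 3064 without 1 animal. Middle against early, 6268 of 9965 detected probes were called, and 9386 to 9858 without 1 animal. With no replicate block, 2729 and 9698 probes were called, and the fits in the text have the animal as the block. The cause of the other shifts was not tested. The number of probes well above background was 9963 to 10137 without 1 animal. The 9 arrays and the signal over background limit these results.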
